A study of Mus musculus with 2 samples.

Results

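Syt6, Slitrk5, Ntrk2, Lpar1, Rgcc and Sorcs3 are 6 genes, several of them best known from neurons, that were chosen by symbol from the 32285 features measured in mouse pancreas at embryonic day 14.5. They were picked because their unique molecular identifiers (UMIs, 1 per captured RNA molecule) were few in mesenchymal or mesothelial cells of the Fgf9 Null sample. Their differences in those cells are therefore descriptions of the choice, with no test. The study addresses the role of the fibroblast growth factor Fgf9 in pancreas development. Control is 1 droplet single-cell library (10x Genomics) from 8 pooled pancreata of 3 litters, of the genotypes Fgf9 +/+ and +/-, and Null is 1 library from 3 pooled pancreata of 3 litters, of the genotype Fgf9 -/-. The Null allele carries a LacZ cassette at the Fgf9 locus, the mice were on a C57BL/6J background, and DAPI-negative live cells were sorted by flow cytometry.

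Synaptotagmins, the family of Syt6, are membrane proteins, several of which trigger vesicle fusion when calcium binds. Slitrk5 is a leucine-rich repeat protein of the cell surface that associates with Ntrk2, the TrkB receptor for the neurotrophins Bdnf and Ntf5. Lpar1 is a receptor for lysophosphatidic acid (LPA), a signalling lipid made by the enzyme Enpp2, Rgcc is a regulator that binds the mitotic kinase Cdk1, and Sorcs3 is a sorting receptor of the Vps10p family. Mesenchyme around the embryonic pancreas sends growth signals to the epithelium. Nearby mesenchyme carries Tlx1, a factor needed for the spleen, or Barx1, a factor of stomach mesenchyme, and the mesothelium is the layer that covers the organs.

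The sequences before the start sites of Syt6 and Ntrk2, which were low in Null mesenchyme, and of Sorcs3, which was low in Null mesothelium, are shown so that both patterns can be set beside their promoters. They are RefSeq promoters on GRCm38.p6, plus strand, limited to bases outside the annotated gene, and all 6 genes matched an entry. Syt6 covers chr3:103574995-103575230, Ntrk2 chr13:58806319-58806568 and Sorcs3 chr19:48205775-48206024. Capitals mark the motifs found.
Syt6: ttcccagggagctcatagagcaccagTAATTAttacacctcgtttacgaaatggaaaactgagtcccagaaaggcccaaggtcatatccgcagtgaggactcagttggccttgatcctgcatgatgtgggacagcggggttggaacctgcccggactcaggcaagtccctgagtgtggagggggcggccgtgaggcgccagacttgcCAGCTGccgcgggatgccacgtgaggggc
Ntrk2: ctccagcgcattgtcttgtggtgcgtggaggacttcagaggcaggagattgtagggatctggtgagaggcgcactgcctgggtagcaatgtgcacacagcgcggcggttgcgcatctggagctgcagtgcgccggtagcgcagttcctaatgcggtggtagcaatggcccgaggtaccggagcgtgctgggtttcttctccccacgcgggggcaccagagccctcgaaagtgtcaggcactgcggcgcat
Sorcs3: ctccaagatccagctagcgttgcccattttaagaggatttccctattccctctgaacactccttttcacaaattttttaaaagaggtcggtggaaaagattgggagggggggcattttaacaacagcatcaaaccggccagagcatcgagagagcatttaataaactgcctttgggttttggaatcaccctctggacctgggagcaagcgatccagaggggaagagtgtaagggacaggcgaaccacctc
Both strands of the window from 250 bases before to 50 bases after each start were searched for 5 short motifs. The homeodomain core TAATTA is held by 5.29% of 32851 mouse promoters and begins at -224 from the start in the Syt6 promoter shown. The E-box CAGCTG is held by 16.3% of promoters, begins at -43 in the Syt6 promoter shown and is found in all 3 Syt6 windows. The first and second of these windows overlap and hold the same copy of it. Among the remaining genes, the homeodomain core was found in 1 of 3 Lpar1 windows, and no motif in the windows of Slitrk5, Ntrk2, Rgcc and Sorcs3. The ETS core CCGGAA is held by 14.9% of promoters but by no window of the 6 genes. Likewise the E-box variant CACCTG is held by 20.2% of promoters and the motif known as the TATA box, with the letters TATAAA, by 13.6%, and neither by a window of the 6 genes. GC content was highest for Slitrk5 at 74.3% and lowest for Sorcs3 at 51.0% among the first windows, against a median of 52.7% over all promoters.

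Cells were clustered without the 6 genes, and clusters were named from markers. The 26969 Control and 8858 Null cells kept had medians of 5748 and 24257 UMIs, and 46.5% and 11.8% of them, mostly of low depth, stayed without a class. The deposited libraries total 339959625 and 271129120 UMIs and share 180 barcode sequences. Mesenchymal-like cells numbered 2547 in Control and 808 in Null, mesothelial-like cells 1136 and 502, and neural-like cells 171 and 147, and the classes are called by these names without the suffix from here on. Levels are given as CPM, the UMIs of a gene as counts-per-million of the UMIs of the class. Fgf9 stood at 116 CPM in Control and 36.8 CPM in Null mesothelium, and since the labels do not place the cassette within the gene, these UMIs check nothing about the allele. Xist had 120267 Control and 69 Null UMIs, so embryo sex and genotype cannot be told apart, and all 6 genes are autosomal. With 1 library per group there is no replicate check and no test, and ranges in brackets are 95% intervals for counting error only.

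The makeup of both tissues differed along with the 6 genes. Tlx1 was detected in 521 Control mesenchymal cells (20.5%) and 11 Null cells (1.36%), and Barx1 without Tlx1 in 898 (35.3%) and 130 (16.1%). Cells with neither made up 44.3% and 82.5%. Any UMI of the factor counted as detection, so cells with neither include cells in which Tlx1 or Barx1 was missed. Among cells of at least 10000 UMIs, 291 Control and 10 Null cells had Tlx1. Barx1 without Tlx1 was found in 400 and 124 of them, and neither in 394 and 529. In the mesothelium Barx1 was found in 94.2% of Control and 32.7% of Null cells. The Null cells were deeper, with medians of 17732.5 against 9342 UMIs in mesenchyme and 18621 against 12699 in mesothelium.

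Syt6 (ENSMUSG00000027849, chromosome 3, 103575231 to 103645569, plus strand, GRCm38 as for the genes below) was 5.49-fold lower in Null mesenchyme. Its mesenchymal counts were 605 UMIs for Control and 64 for Null, or 25.2 CPM (23.3 to 27.3) and 4.60 CPM (3.54 to 5.88), and the log2 ratio of Null over Control was -2.46 (-2.85 to -2.08). The difference was widest in cells with neither Tlx1 nor Barx1, at 23.6 and 3.48 CPM, and smaller in cells with Barx1 alone, at 15.3 and 6.52 CPM. In cells with Tlx1 the levels were 43.8 CPM (38.5 to 49.6) and 36.3 CPM (15.7 to 71.6), with overlapping intervals, the Null value resting on 8 UMIs in 11 cells. With the Null subtypes weighted at the Control mix the ratio was -1.03, and with the 3 subtypes weighted alike -0.83, and both lean on those 8 UMIs. Neural cells had 23.6 CPM (17.1 to 31.8) and 15.8 CPM (10.2 to 23.4), with overlapping intervals, and neural cells without the glial factor Sox10 had 38.7 and 36.2 CPM. The neural log2 ratio of -0.58 was -1.13 with cells gated by markers, -1.08 without the second set of called doublets, -1.04 with free RNA subtracted and -1.71 after thinning, the last with an interval that spans 0. Mesothelial cells held 9 Control UMIs and 0 Null UMIs. Low counts in other classes were also lower in Null. Endocrine cells held 30 and 1 UMIs, ductal or trunk cells 20 and 2 and acinar cells 17 and 0. Cells without a class held 133 and 0, while macrophage cells held 6 and 4, with overlapping CPM intervals. The free RNA estimated from acinar enzymes held Syt6 at 2.80 and 0.395 CPM, and its part in these counts was not tested.

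Slitrk5 (ENSMUSG00000033214, chromosome 14, 111675097 to 111683141, plus strand) was 4.99-fold lower in Null mesenchyme. Its mesenchymal counts were 628 UMIs for Control and 73 for Null, or 26.2 CPM (24.2 to 28.3) and 5.25 CPM (4.11 to 6.60), with a log2 ratio of -2.32 (-2.69 to -1.97). It was lower both in cells with neither factor, at 28.0 and 5.49 CPM, and in cells with Barx1 alone, at 18.2 and 3.99 CPM, and Null cells with Tlx1 held 2 UMIs. In the mesothelium the order was the opposite, with 2.08 CPM (1.42 to 2.93) from 32 UMIs in Control, 6.22 CPM (4.73 to 8.02) from 59 UMIs in Null and a log2 ratio of 1.58 (0.94 to 2.25). Split by Barx1, neither set of mesothelial cells was higher in Null. Cells with Barx1 had 1.68 and 1.54 CPM, a log2 ratio of -0.12 (-1.87 to 1.29), and cells without it 13.7 and 8.65 CPM, a log2 ratio of -0.66 (-1.80 to 0.72). The level was higher without Barx1 in both libraries, and such cells were 66 of the Control and 338 of the Null mesothelial cells. Neural cells had 13.2 CPM (8.44 to 19.6) and 12.0 CPM (7.24 to 18.8), with overlapping intervals. Endocrine cells held 36 and 0 UMIs, ductal or trunk cells 18 and 1 and acinar cells 23 and 10. The free RNA held Slitrk5 at 2.94 and 0.748 CPM, and its part in these counts was not tested. Slitrk5 lies 53.6 Mb from Fgf9 on the same chromosome.

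Ntrk2 (ENSMUSG00000055254, chromosome 13, 58806569 to 59133970, plus strand) was 3.70-fold lower in Null mesenchyme. Its mesenchymal counts were 2083 UMIs for Control and 327 for Null, or 86.9 CPM (83.2 to 90.7) and 23.5 CPM (21.0 to 26.2), with a log2 ratio of -1.89 (-2.06 to -1.72). Cells with Barx1 alone were furthest apart, at 100.4 CPM (93.9 to 107) and 12.3 CPM (8.53 to 17.2), a log2 ratio of -3.03 (-3.57 to -2.53), and cells with neither factor stood at -1.62 (-1.83 to -1.42). In cells with Tlx1 the levels were 78.7 and 59.1 CPM, the latter from 13 UMIs. Ductal or trunk cells had 3.44 and 3.47 CPM, a log2 ratio of 0.02 (-0.26 to 0.29), and endocrine cells 5.44 and 5.65 CPM, a log2 ratio of 0.05 (-0.29 to 0.40), while acinar cells were lower in Null, at 0.823 and 0.0993 CPM. Within the endocrine class the cluster led by Ins1 and Ins2, the insulin genes, had 16.0 CPM (12.5 to 20.2) in Control and 16.3 CPM in Null. The cluster led by Sst, the somatostatin gene, was lower in Null, at 3.64 CPM (2.65 to 4.89) and 0.701 CPM (0.257 to 1.53), and the other endocrine clusters had 4.95 and 3.52 CPM and, from 1 Null UMI, 3.38 and 2.58 CPM, with overlapping intervals. The free RNA estimated from acinar enzymes held Ntrk2 at 10.2 CPM in Control and 2.86 CPM in Null. Its part in the acinar and endocrine levels was not tested. Mesothelial cells held 53 and 3 UMIs, and neural cells 10 and 2. Isoforms of Ntrk2 that end at different places are counted together.

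Lpar1 (ENSMUSG00000038668, chromosome 4, 58435255 to 58553898, minus strand) was 3.83-fold lower in Null mesenchyme. Its mesenchymal counts were 3363 UMIs for Control and 510 for Null, or 140.3 CPM (136 to 145) and 36.7 CPM (33.6 to 40.0), with a log2 ratio of -1.94 (-2.07 to -1.80). Control levels were 151 CPM with Tlx1, 141 CPM with Barx1 alone and 133 CPM with neither, and the Null levels of the last pair were 49.6 and 33.9 CPM. Null cells with Tlx1 held 3 UMIs. The mesothelium was slightly higher in Null, at 17.2 CPM (15.2 to 19.4) and 23.4 CPM (20.4 to 26.7), and that held among cells with Barx1, at 17.4 and 29.2 CPM, a log2 ratio of 0.75 (0.40 to 1.09). The mesothelial log2 ratio of 0.44 was 0.83 with cells gated by markers and 1.07 after thinning. Neural cells held 25 and 45 UMIs, 13.7 and 28.5 CPM, a log2 ratio of 1.05 that became 2.01 with free RNA subtracted. Most came from cells with Sox10, which had 27.5 and 46.3 CPM, a log2 ratio of 0.75 (-0.03 to 1.57). Endocrine cells were lower in Null, at 6.22 CPM (5.40 to 7.13) and 2.30 CPM (1.69 to 3.05). So were ductal or trunk cells, at 12.4 CPM (11.6 to 13.2) and 9.85 CPM (9.05 to 10.7). Acinar cells had 4.36 and 3.99 CPM, with overlapping intervals. The free RNA held Lpar1 at 19.4 and 8.36 CPM, and its part in these levels was not tested.

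Rgcc (ENSMUSG00000022018, chromosome 14, 79288756 to 79301645, minus strand) was 4.71-fold lower in Null mesenchyme and higher in several other Null classes. Its mesenchymal counts were 1428 UMIs for Control and 176 for Null, or 59.6 CPM (56.5 to 62.8) and 12.7 CPM (10.9 to 14.7), with a log2 ratio of -2.24 (-2.47 to -2.01). Cells with Barx1 alone had 54.6 and 14.1 CPM and cells with neither factor 59.7 and 12.1 CPM, while cells with Tlx1 had 67.2 and 22.7 CPM, the latter from 5 UMIs. Endothelial cells went the other way, at 161 CPM (150.1 to 172) and 267 CPM (249.5 to 285). So did macrophage cells, at 52.0 CPM (45.6 to 59.1) and 80.7 CPM (72.4 to 89.6). Acinar enzymes put free RNA at 34.4% of Control and 7.19% of Null endothelial UMIs, and 35.0% and 8.60% of macrophage UMIs. The free RNA itself held less Rgcc, at 11.8 and 8.55 CPM, and its part in the higher Null levels was not tested. Neural cells had 105 CPM (91.0 to 121) and 184 CPM (163 to 206), a log2 ratio of 0.80 that became 0.33 with free RNA subtracted. Those with Sox10, 49 Control and 58 Null cells, had 241 and 282 CPM, a log2 ratio of 0.23 (-0.05 to 0.50). Of all Rgcc UMIs in kept cells, mesenchyme held 38.2% in Control and 8.80% in Null, and endothelial cells 22.6% and 43.3%. Mesothelial cells had a log2 ratio of -1.61 (-2.15 to -1.10), and those with Barx1 -0.53 (-1.16 to 0.04), and over all mesothelial cells it was -2.58 after thinning. Rgcc lies 21.2 Mb from Fgf9 on the same chromosome.

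Sorcs3 (ENSMUSG00000063434, chromosome 19, 48206025 to 48805505, plus strand) was found mainly in the mesothelium, where it was 10.9-fold lower in Null. Its mesothelial counts were 551 UMIs for Control and 31 for Null, or 35.8 CPM (32.8 to 38.9) and 3.27 CPM (2.22 to 4.64), with a log2 ratio of -3.45 (-4.02 to -2.93). It was lower on both sides of the Barx1 split. Cells with Barx1 had 36.1 and 5.23 CPM, a log2 ratio of -2.78 (-3.57 to -2.09), and cells without it 27.4 and 2.24 CPM, each from 14 UMIs. Mesothelial cells carried 81.8% of Control and 54.4% of Null Sorcs3 UMIs. Mesenchymal cells held 13 and 14 UMIs, a log2 ratio of 0.89 (-0.31 to 2.10), so a low Null mesenchymal level describes 5 of the 6 genes and not Sorcs3.

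**Figure D1:**
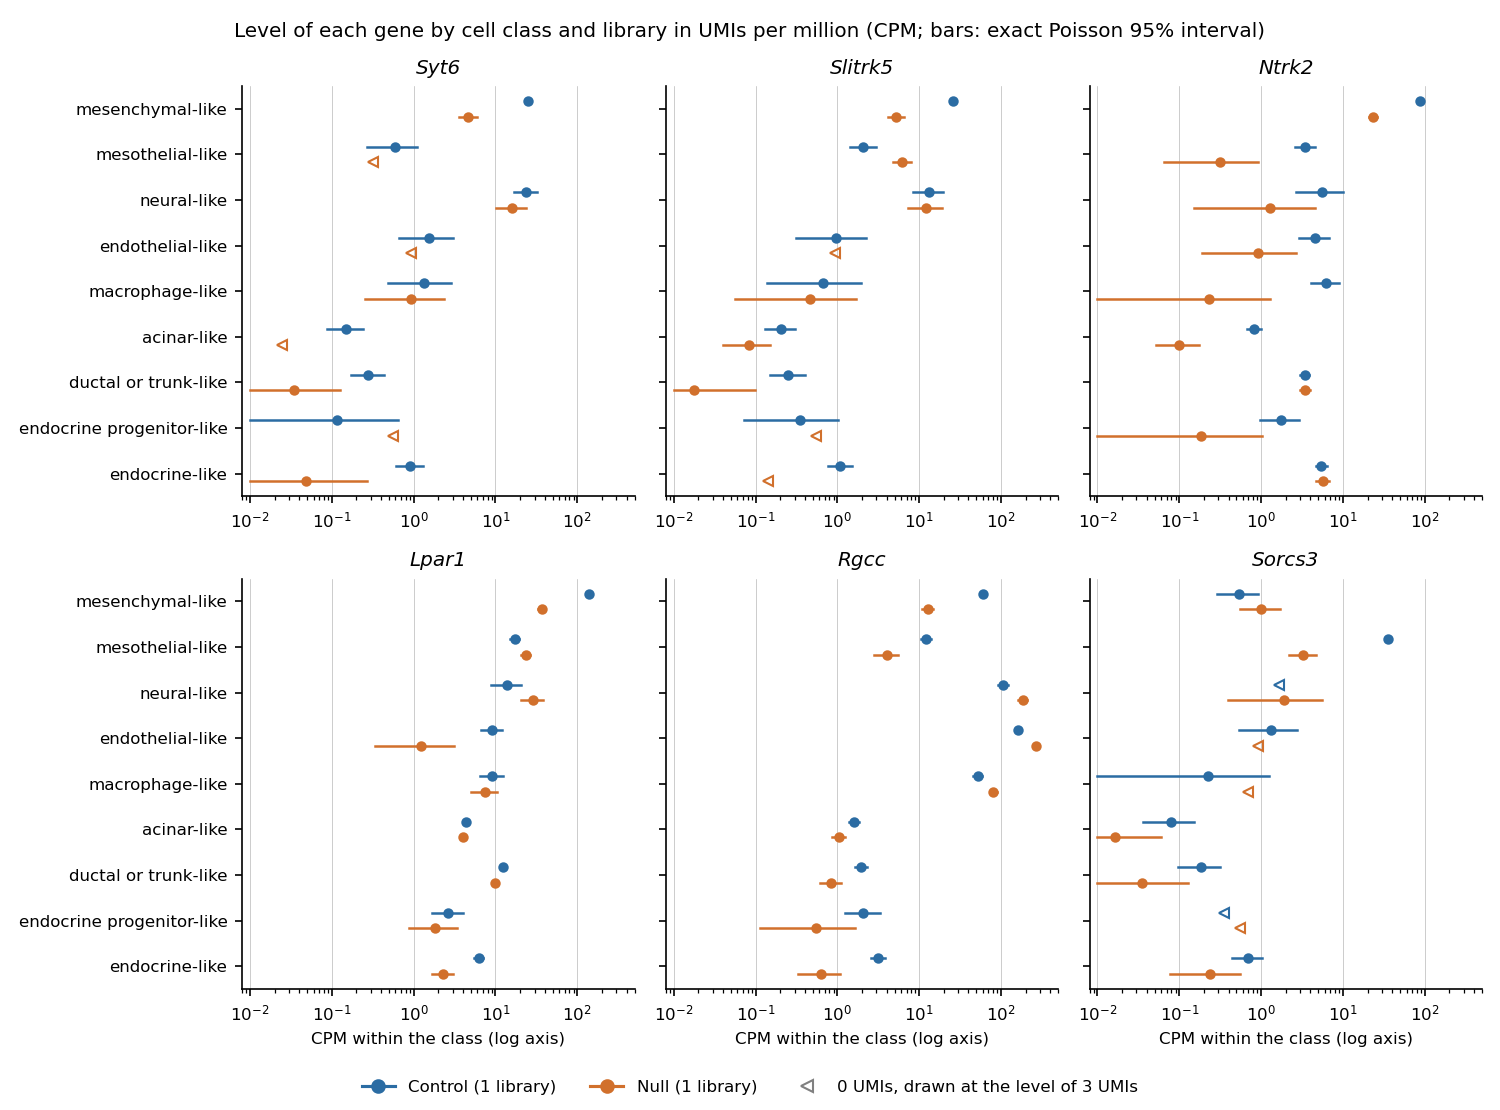
Level of each gene in CPM (log axis) by cell class, with 1 point per library and exact Poisson 95% intervals. Syt6, Slitrk5, Ntrk2, Lpar1 and Rgcc are lower in Null mesenchymal cells and Sorcs3 is lower in Null mesothelial cells. Rgcc is higher in Null endothelial, macrophage and neural cells, with free RNA not subtracted.

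**Figure D2:**
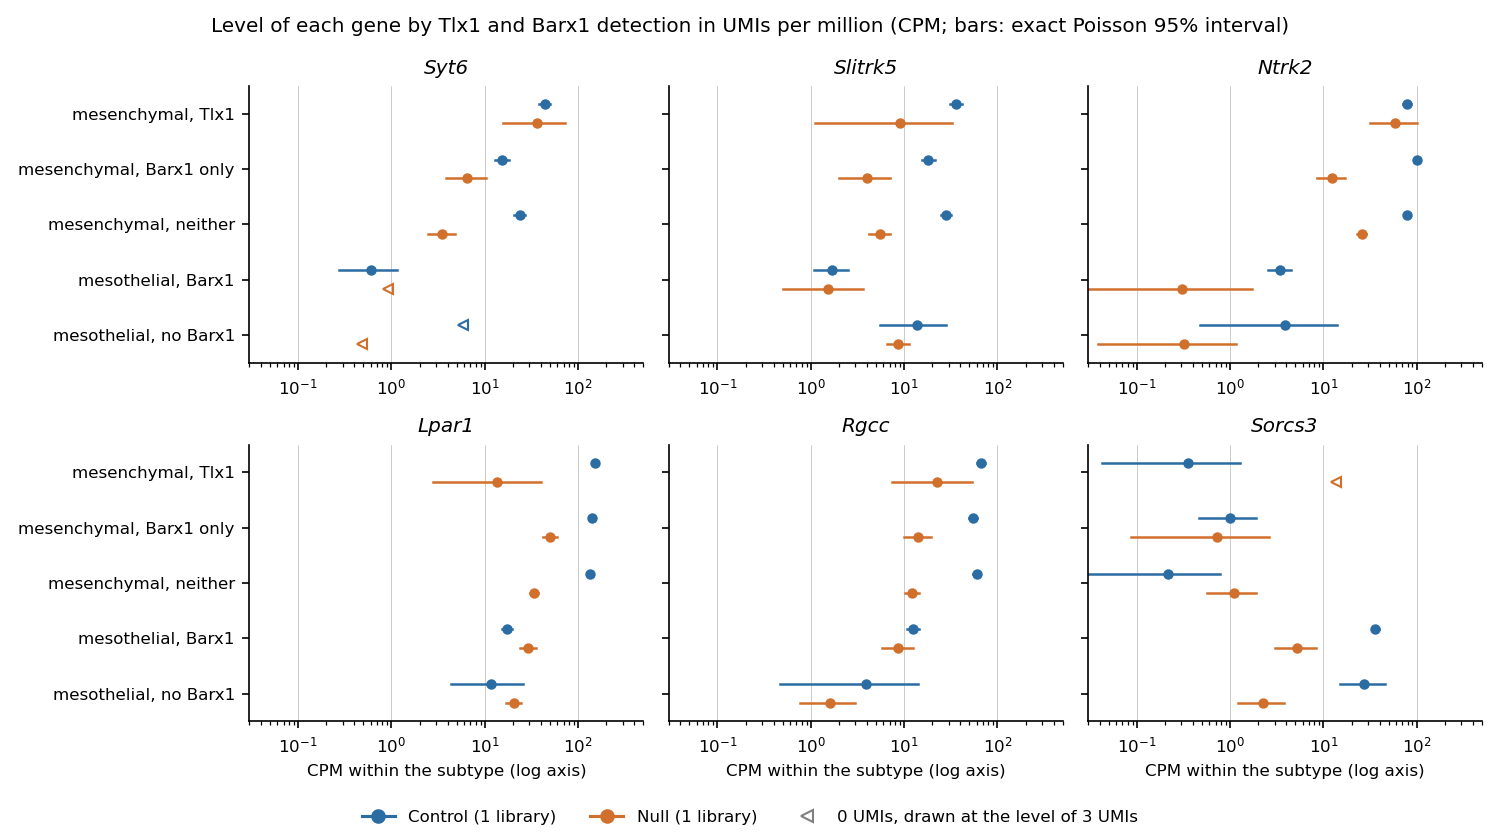
Level of each gene in CPM (log axis) in mesenchymal cells split by Tlx1 and Barx1 and mesothelial cells split by Barx1, with exact Poisson 95% intervals. The Null points with Tlx1 rest on 11 cells and have wide intervals.

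The order of the classes differed between the libraries for some of the genes. They were chosen for low Null values in mesenchyme or mesothelium, so a lower place of the Null mesenchyme follows from the choice. In Control the mesenchyme ranked first for Syt6, Slitrk5, Ntrk2 and Lpar1, its interval overlapping that of neural cells for Syt6. In Null, neural cells ranked first for Syt6 and Slitrk5, and for Slitrk5 neural, mesothelial and mesenchymal intervals each overlapped the next. For Lpar1 the Null levels were 36.7 CPM in mesenchyme, 28.5 in neural cells and 23.4 in mesothelium, each overlapping the next. The Null mesenchyme still ranked first for Ntrk2, at 23.5 CPM, with endocrine cells next at 5.65 CPM and no overlap of intervals. In Control, neural cells held 4.93% of Syt6, 2.65% of Slitrk5, 0.318% of Ntrk2 and 0.417% of Lpar1 UMIs. The Control mesenchyme held 69.4%, 69.4%, 66.3% and 56.0%. Such shares follow class size as well as level. Neural cells held 1822617 and mesenchymal cells 23966067 of the 312667539 Control UMIs, haemoglobin and mitochondrial genes excepted. In Null, neural cells held 26.0%, 11.3%, 0.295% and 2.29% of the UMIs of the same genes.

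Taking a log2 ratio of -1 or below as lower, 5 of the 6 genes were lower in Null mesenchyme, where 3.16% of 11763 genes with at least 100 UMIs were. In mesothelium 2 of the 3 genes with 100 UMIs, Rgcc and Sorcs3, were lower, against 3.71% of 11056 genes. These counts follow from the choice of the genes, and with the 3 subtypes weighted alike Syt6, at -0.83, is no longer among those lower. The same 5 were lower in cells with Barx1 alone, against 2.55% of genes, and in cells with neither factor, against 2.4%, and these cells are part of the mesenchyme used for the choice. In neural cells 1 gene, Rgcc, reached 100 UMIs and it was not lower, against 1.52% of genes. From the lowest ratio up, Syt6 ranked 13, Slitrk5 19, Rgcc 25, Lpar1 59 and Ntrk2 72 in mesenchyme and Sorcs3 9 in mesothelium. Among genes of at least 20 CPM in mesenchyme, Kazald1 and Pdlim3 lay beyond Syt6 at -3.34 and -2.66, and Gc, Smim22 and P2rx1 just past Ntrk2 at -1.85, -1.83 and -1.81. In mesothelium Tsix, Ppp1r14c and Crabp1 lay beyond Sorcs3 at -8.65, -4.29 and -3.53, and Nkx6-1, Onecut1 and Cmbl followed it at -2.88, -2.84 and -2.65. The median over all genes was 0.02 in mesenchyme, -0.04 in mesothelium and 0.08 in neural cells.

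The share of cells with a UMI was compared after thinning each cell to 2000 UMIs, which left 2511 Control and 776 Null mesenchymal cells and set aside 36 and 32. Lpar1 was found in 22.2% (20.6 to 23.9) of the Control cells and in 8.63% (6.75 to 10.8) of the Null cells. For Ntrk2 the shares were 15.2% and 4.90%, for Rgcc 11.1% and 2.96%, for Slitrk5 5.30% and 1.55% and for Syt6 4.62% and 0.773%. Without thinning they were 62.1% and 34.3% for Lpar1, 43.2% and 18.9% for Ntrk2, 28.0% and 13.0% for Rgcc, 18.7% and 7.18% for Slitrk5 and 16.3% and 4.95% for Syt6. All 5 were found in fewer Null cells both ways. Sorcs3 was found in 7.75% (6.26 to 9.47) of the mesothelial cells of Control and in 0.602% (0.124 to 1.75) of those of Null, and in 26.8% and 4.58% unthinned. Acinar cells, taken as a class that should lack these genes, reached 0.698% and 0.720% for Lpar1, the highest of the 6, at median depths of 32138.5 and 47626.5 UMIs. For Sorcs3 the acinar shares were 0.0873% and 0%. None of the 6 genes was found in 54.9% of Control and 82.5% of Null thinned mesenchymal cells, and 2 or more in 11.8% and 1.29%.

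**Figure D3:**
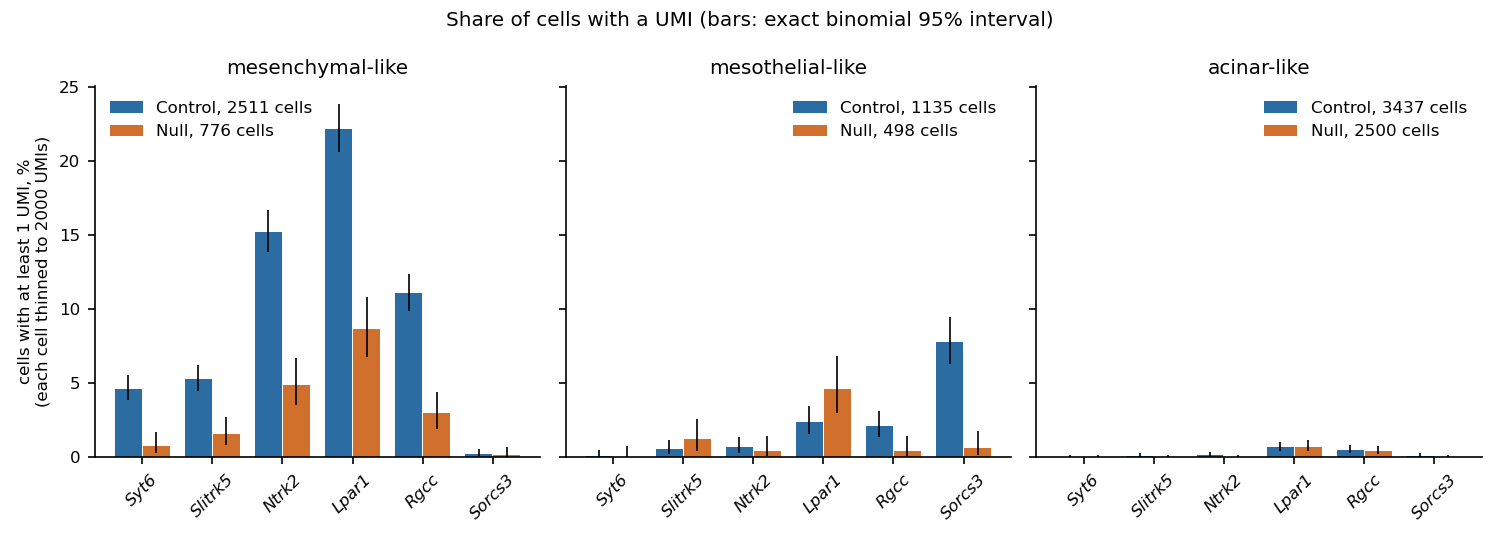
Share of cells in percent with at least 1 UMI of each gene, each cell thinned to 2000 UMIs, with exact Clopper-Pearson 95% intervals. Control exceeds Null for 5 genes in mesenchymal cells and for Sorcs3 in mesothelial cells.

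The 5 genes were lower in both dividing and other Null mesenchymal cells. Both sets are part of the mesenchyme used for the choice of the genes, so these ratios are a description. Among genes of at least 100 UMIs, 2.62% had a log2 ratio of -1 or below in the dividing cells and 2.66% in the others. Among cells with Mki67 or Top2a, markers of division, Rgcc had 50.8 and 12.4 CPM, a log2 ratio of -2.03 (-2.32 to -1.75), and among the others 78.7 and 13.1 CPM, a log2 ratio of -2.58 (-3.00 to -2.19). For the other genes the ratios with and without these markers were -2.62 and -2.18 for Syt6, -2.31 and -2.32 for Slitrk5, -1.94 and -1.78 for Ntrk2 and -1.72 and -2.41 for Lpar1. The largest mesenchymal cluster, of 2007 Control and 606 Null cells, had 154 and 38.7 CPM of Lpar1, and a smaller one, of 296 and 148 cells, 91.7 and 31.0 CPM. The remaining one, of 244 and 54 cells of low depth, had 85.6 CPM (65.9 to 109) and 37.7 CPM (12.2 to 88.0). Its intervals overlapped, and the Null value came from 5 UMIs.

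Over all genes of at least 100 UMIs, 3.16% were lower and 2.47% higher by a log2 ratio of 1 in Null mesenchyme, and 3.71% and 3.77% in mesothelium, which is the background for the counts of relatives that follow. By the same threshold, no relative of Syt6 or Slitrk5 with 100 UMIs was lower in Null mesenchyme. So few relatives reached 100 UMIs that the share over all genes would give the same count. Of 16 other synaptotagmins, 5 had at least 100 mesenchymal UMIs, of which 0 were lower and 2 higher by a log2 ratio of 1, with a median of 0.35. Syt1, the calcium sensor of fast transmitter release, was the furthest, with 13 and 160 UMIs and a log2 ratio of 4.41 (3.59 to 5.35), and Syt11 stood at 1.11. The remaining members were Syt2 at 0.35, Syt7 at 0.28 and Syt13 at -0.95. Of the 5 other Slitrk genes, 2 reached 100 UMIs, Slitrk4 at 2.12 (1.85 to 2.40), from 6.26 and 27.2 CPM, and Slitrk6 at 0.17.

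The Ntrk2 ligands Bdnf and Ntf5 were higher in Null mesenchyme, where Ntrk2 was lower. Bdnf had 222 and 424 UMIs, 9.26 CPM (8.08 to 10.6) and 30.5 CPM (27.6 to 33.5). Ntf5 had 96 and 305 UMIs and a log2 ratio of 2.45 (2.12 to 2.80). Ngfr, a receptor shared by the neurotrophins, stood at 2.25, Ntrk3, the receptor of Ntf3, at 1.95 and Ntf3 at -1.27. In mesothelium Bdnf stood at 1.25 (0.88 to 1.63) and Ntf5 at 1.65 (1.31 to 2.00).

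Other LPA genes had ratios closer to 0 than Lpar1 in mesenchyme. Of 9 of them, 6 reached 100 mesenchymal UMIs, with 1 lower, 0 higher and a median of -0.58. The lower one was Enpp2, at -1.06 (-1.46 to -0.68), from 10.8 and 5.18 CPM. The receptors Lpar4 and Lpar6 stood at -0.60 and -0.44, and the phosphatases Plpp3, Plpp2 and Plpp1, which break LPA down, at -0.88, -0.56 and 0.19. In mesothelium 7 of the 9 reached 100 UMIs, with 1 lower, 0 higher and a median of -0.43. There Enpp2 stood at -0.82, Lpar2, Lpar4 and Lpar6 at -0.40, -0.43 and -0.69, and Plpp2 at -1.41.

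Sorcs1, a close relative of Sorcs3, was higher in Null mesothelium, where Sorcs3 was lower. It had 167 and 353 UMIs there, 10.8 CPM (9.26 to 12.6) and 37.2 CPM (33.4 to 41.3), a log2 ratio of 1.78 (1.51 to 2.05). Sorcs2 stood at 0.79, Sort1 at 0.08 and Sorl1 at -0.53. In mesenchyme Sorcs1 had 15 and 156 UMIs and stood at 4.16 (3.40 to 5.03), with Sorl1 at -1.04.

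Of the 4 mitotic genes listed beside Rgcc, 0 were lower and 0 higher in mesenchyme, with Cdk1 at 0.18, Plk1 at 0.20, Aurkb at 0.43 and Ccnb1 at 59.0 and 58.9 CPM. Of 14 receptor and neurite genes known from neural crest derivatives, 10 reached 100 mesenchymal UMIs, with 3 lower, 1 higher and a median of -0.54. Those lower were Gap43, a growth cone protein, at -1.25, Nrg1, a ligand of ErbB receptors, at -1.31 and its receptor Erbb3 at -1.38, and Gfra1, a co-receptor of Gdnf, was higher at 1.22. In mesothelium 7 of these genes reached 100 UMIs, with 4 lower, 1 higher and a median of -1.05. Erbb3, Gfra2, Nrg1 and Edn3 stood at -1.43, -1.41, -1.12 and -1.05, and Ncam1, a neural adhesion molecule, at 2.46 (2.32 to 2.60), from 36.7 and 202 CPM.

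**Figure D4:**
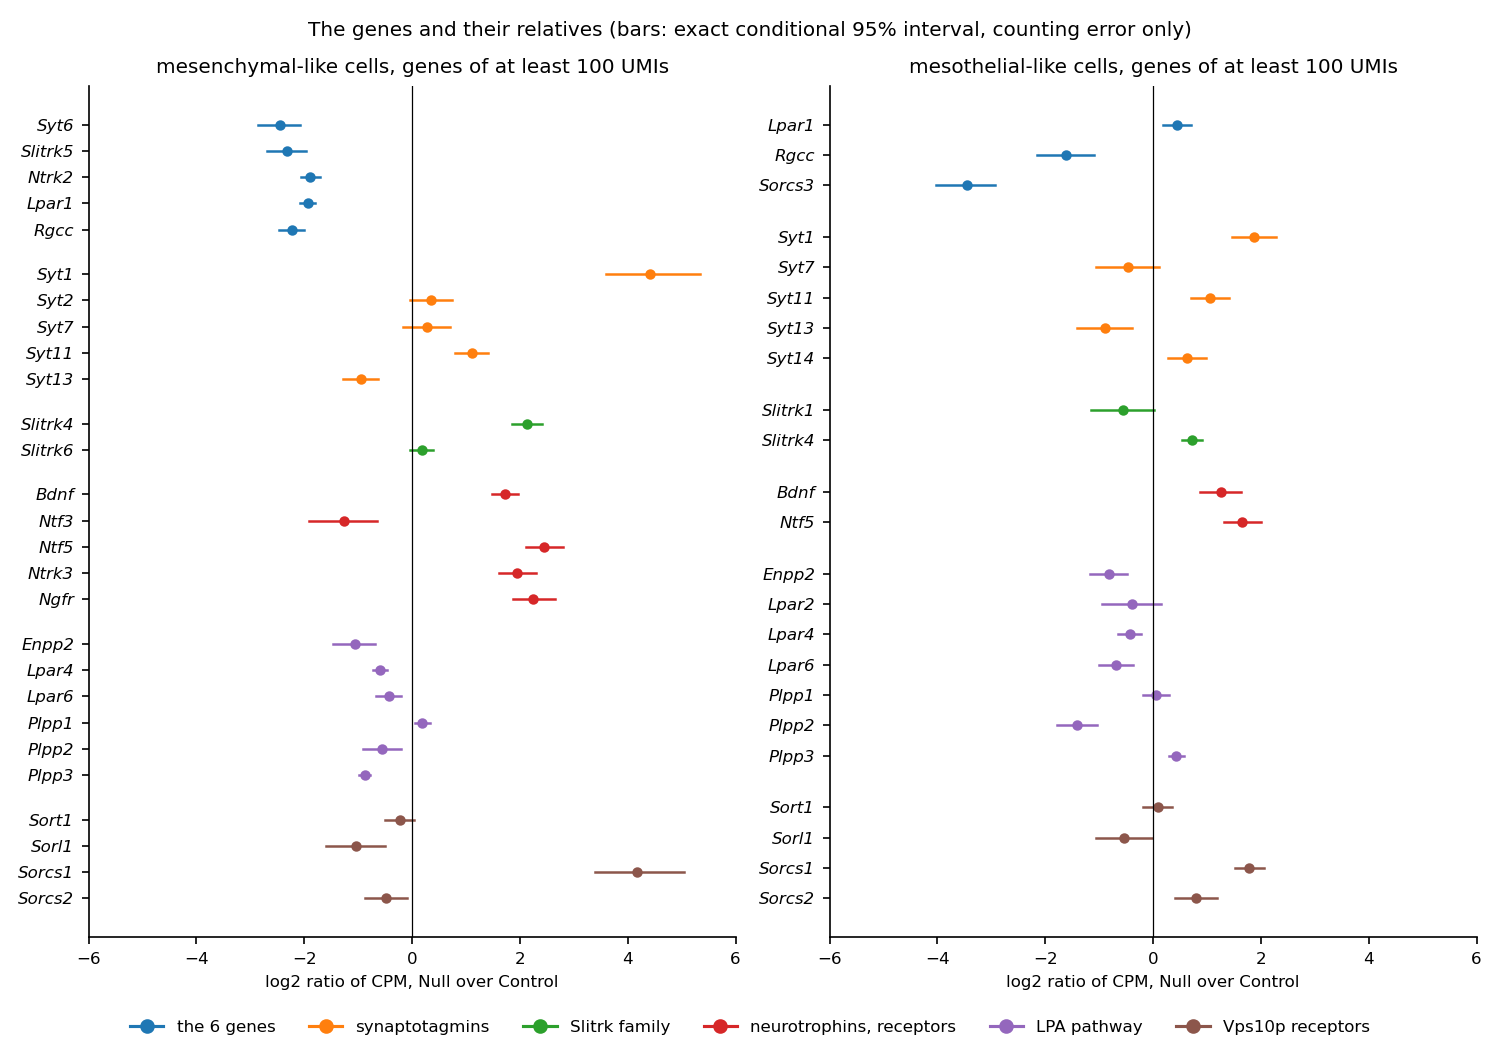
Log2 ratio of Null over Control CPM with exact conditional 95% intervals for the genes and their relatives with at least 100 UMIs, in mesenchymal and mesothelial cells. Syt1, Slitrk4, Bdnf, Ntf5, Ntrk3, Ngfr and Sorcs1 lie above 0 in mesenchymal cells, while Syt6, Slitrk5, Ntrk2, Lpar1 and Rgcc lie at -1.89 or below.

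Markers of other cell types also differed in the same cells. In mesenchyme the 8 glial markers summed to 37.7 CPM in Control and 26.7 CPM in Null, with Sox10 at 18 and 4 UMIs. The 11 neuronal markers summed to 199 and 88.9 CPM, of which Gap43 made 192 and 81.1 CPM, and Dbh was at 0 in Control. In neural cells the glial markers summed to 1115 and 2304 CPM and the neuronal markers to 2746 and 2756 CPM. Their part in the higher neural Rgcc and Lpar1 was not tested. Acinar enzymes put free RNA at 24.8% of Control and 6.12% of Null mesenchymal UMIs, 19.2% and 5.82% of mesothelial UMIs and 47.3% and 23.4% of neural UMIs. With free RNA subtracted the mesenchymal ratio was -2.74 for Syt6 and -2.18 for Ntrk2. The 12 mesenchymal markers summed to 2965 CPM in Control and 9111 CPM in Null mesothelial cells, against 1639 and 1728 CPM for the 11 mesothelial markers. Their part in the mesothelial results was not tested.

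The genes most alike in pattern were found by Pearson's r of log2(CPM + 1) over 24 points, 12 classes or subtypes in each library, among 17127 genes. The points share libraries and depth, and the mesenchyme enters both whole and as its subtypes. The mesenchymal and mesothelial points include the low Null values used for the choice of the genes. Each r is a description. Syt6 was most like Gpr19, Slitrk5 and Tbx3 at 0.925, 0.915 and 0.914, and Slitrk5 most like Opcml, Magel2 and Vgll3 at 0.953, 0.951 and 0.942. For Ntrk2 the nearest were Ctsk, Col7a1 and Sned1 at 0.951, 0.947 and 0.935, and for Lpar1 2810032G03Rik, Efhb and Svep1 at 0.919, 0.918 and 0.909. Rgcc lay nearest to Ppp1r18, Mef2c and Fam102b at 0.907, 0.903 and 0.897, and Sorcs3 to Myh8, Tshr and Fgf8 at 0.940, 0.925 and 0.921. Among the 6 genes, Slitrk5 and Lpar1 had an r of 0.894, and Syt6 and Sorcs3 one of -0.050.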

How the data were processed

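Single-cell RNA was measured with the 10x Genomics 3′ droplet assay. The deposited matrices hold raw UMI counts, written by Cell Ranger 6.1.1 per the file headers. The submitters' processing notes also name bcl2fastq, Seurat 3.2.3 and mm10, and the use of strand in counting is not given by the sources used here. GENCODE vM21 matched 32235 of 32285 features (99.8%).

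Cells needed at least 1000 UMIs, 300 genes and under 15% mitochondrial UMIs. Scrublet (scanpy 1.11.5) marked 5.81% of Null cells as doublets. Its automatic threshold failed in Control, where a score of 0.25 marked 0.773%, so doublets may remain, and a second call was made on cells of at least 5000 UMIs as an alternative. Clustering used 2000 variable genes, leaving out the 6 genes along with sex-linked, haemoglobin, mitochondrial, ribosomal and immediate early genes, with 30 principal components, 15 neighbours and Leiden resolution 1. Naming needed at least 3 raised markers, under thresholds set after the data were seen.

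UMIs were summed by class and divided by the class total, haemoglobin and mitochondrial genes excepted. Levels carry exact Poisson, ratios exact conditional and shares Clopper-Pearson intervals, all for counting error only, and the code was tested on simulated data. Named are the 6 genes, relatives with at least 100 UMIs in mesenchymal or mesothelial cells, the 3 most alike genes and 3 genes on either side in the ranking. Some genes that this rule or a list would name are not reported here, and the neurotrophin genes, of which some are left out for that reason, are given one by one with no count or median. The 6 genes and all lists were chosen with earlier results of these data known. Alternatives changed filters, class calls, scaling, depth, free RNA and subtype weights.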

Additional observations from a re-analysis of the deposited data

Results flagged for a closer look

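Some of the genes had log2 ratios of opposite sign in different classes, with counting intervals on opposite sides of 0. Whether the classes differ was not tested. Slitrk5 stood at 1.58 in mesothelial and -3.85 in ductal or trunk cells, the latter from 18 Control and 1 Null UMIs. Lpar1 stood at 0.44 in mesothelial and 1.05 in neural cells, against -2.86 in endothelial cells, from 47 and 4 UMIs. Free RNA was put at 34.4% of Control and 7.19% of Null endothelial UMIs, and the free RNA itself held Lpar1 at 19.4 and 8.36 CPM, against 8.95 and 1.23 CPM in the endothelial cells. Rgcc stood at 0.80 in neural, 0.73 in endothelial and 0.63 in macrophage cells, against -2.34 in endocrine cells, from 105 and 13 UMIs. The free RNA held Rgcc at 11.8 and 8.55 CPM, against 3.16 and 0.622 CPM in endocrine cells. It held Slitrk5 at 2.94 and 0.748 CPM, against 0.252 and 0.0175 CPM in ductal or trunk cells. The part of free RNA in these ratios was not tested.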

How the results depend on the processing

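No paired analysis was possible because each group is 1 library. Under 11 alternatives each, the mesenchymal log2 ratios of Syt6, Slitrk5, Ntrk2, Lpar1 and Rgcc were all below 0, as was the mesothelial ratio of Sorcs3 under 9 (-3.83 to -3.29). Subtypes weighted alike gave -0.83 for Syt6, -1.41 for Ntrk2, -2.13 for Lpar1 and -1.89 for Rgcc. The Control mix, chosen after seeing the data, gave -1.03 for Syt6, -1.61 for Ntrk2 and -1.96 for Rgcc. Thinning to 2000 UMIs gave -1.73 for Slitrk5, -1.66 for Ntrk2 and -1.47 for Lpar1, and free RNA subtraction -2.18 for Ntrk2, -2.23 for Lpar1 and -2.54 for Rgcc. Slitrk5 stood at -2.71 with the 6 genes kept for clustering, and Ntrk2 at -2.20 with cells gated by markers. From 20 UMIs up, 5.88% of genes were lower in mesenchyme and 6.56% in mesothelium. The causes of these shifts were not tested. Within Tlx1 cells the Rgcc ratio of -1.57 turned to 0.89 when 2 Tlx1 UMIs were required, which left 2 Null cells. There Syt6 also turned, from -0.27 to 1.03, and Ntrk2 went from -0.41 to 1.72 with subtypes called after thinning, in 1 Null cell. Alternatives with a count of 0 gave no value. Sorcs3 in mesenchyme took either sign (-0.90 to 5.46). The number of cells limits the Null Tlx1 values, and the number of UMIs those of Sorcs3 in mesenchyme.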

Other observations

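A cluster of 1090 Control and 635 Null cells, with median depths of 2140 and 1507 UMIs, stayed without a class, with haemoglobin genes beside the mesothelial markers Upk3b, Aldh1a2 and Wt1 among its leading genes. There Lpar1 had 17.7 and 18.5 CPM in the order Control and Null, Rgcc 12.6 and 14.8 CPM and Ntrk2 10.2 and 8.32 CPM, with log2 ratios of 0.06 (-0.78 to 0.85), 0.23 (-0.73 to 1.14) and -0.30 (-1.58 to 0.84). Sorcs3 had 13 Control UMIs and 0 Null UMIs, and Syt6 14 and 0.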
